A study of Homo sapiens with 9 samples.

Results

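Gene expression arrays of a pair of parental breast cancer lines were compared, the line MDA-MB-231 against the line ZR-75-1. The members are the 6 arrays labeled with these lines, 3 each, out of 9 arrays in the series, and the remaining 3 arrays, of the line B6TC, were not used. The MDA-MB-231 cells were an ER negative, GFP-transfected clone, named clone 10, that was resistant to G418. The ZR-75-1 cells were ER positive, carried GFP and puromycin resistance, and per the methods were a pool of resistant cells. Both lines thus expressed GFP and a drug resistance gene, and both were grown in McCoy's 5A medium with 10% fetal bovine serum. Biotin-labeled RNA was hybridized to Affymetrix U133 Plus 2.0 arrays, which read most genes with several sets of short probes, and the values are deposited log2 values. Tested were probe sets that reached 6 on 3 or more of the 6 arrays, which kept 20564 probe sets, set aside 34049 and covered 10562 genes with a symbol. For each gene the probe set with the highest mean over the 6 arrays was used unless another is named.

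ZR-75-1 is a luminal line: luminal cells line the milk ducts, keep E-cadherin junctions and depend on the estrogen receptor, whose gene ESR1 acts with the pioneer factors FOXA1 and GATA3. MDA-MB-231 is known for mesenchymal features, an activated RAS and RAF pathway and invasive growth. Epithelial-mesenchymal transition, or EMT, is the program in which factors such as ZEB1 and SNAI2 repress epithelial genes through E-box sites while matrix and contractile genes come on.

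The labels call the 3 arrays of each line technical replicates, so the p-values measure only the spread between arrays of 1 clone and 1 pool of cells, and a difference between lines cannot be told apart from a difference between the cultures or RNA preparations that were used. In RNA of whole cultures, fewer cells of a type and less RNA per cell cannot be told apart. Arrays of the same line correlated with a Pearson r of 0.9960 to 0.9976 over the tested probe sets, and arrays of different lines with an r of 0.6551 to 0.6644. The median SD between arrays of a line was 0.069 in MDA-MB-231 against 0.067 in ZR-75-1 on the log2 scale. The number of probe sets at 6 or more was 18808 to 18885 per MDA-MB-231 array and 18480 to 18492 per ZR-75-1 array. Poly-A spike-in controls averaged 5.68 ± 0.02 (SD, n = 3) with MDA-MB-231 RNA but 7.54 ± 0.02 with ZR-75-1 RNA, and the 3′ probe set of ACTB exceeded its 5′ probe set by 0.32 and 0.73, respectively. The part of these technical differences in the results was not tested.

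Most genes differed between the lines by more than the spread between arrays. With limma, 8821 of 10562 genes (83.5%) were called different at an adjusted p of 0.05 or less, of which 4382 (41.5%) were higher in MDA-MB-231 and 4439 (42.0%) were higher in ZR-75-1. The median absolute log2 difference was 0.61. A difference of at least 2-fold was called for 1672 genes (15.8%) higher in MDA-MB-231 and 1683 genes (15.9%) higher in ZR-75-1, and at least 16-fold for 185 and 134 genes. A gene that reached 6 in a single line had to differ to be tested, so the same counts are also given for the 8443 genes at 6 or more on all arrays of both lines. Among those, 883 (10.5%) were at least 2-fold higher in MDA-MB-231 and 976 (11.6%) were at least 2-fold higher in ZR-75-1. Another 1052 genes reached 6 on all MDA-MB-231 arrays but not on all ZR-75-1 arrays, and 1016 genes the other way around.

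**Figure D1:**
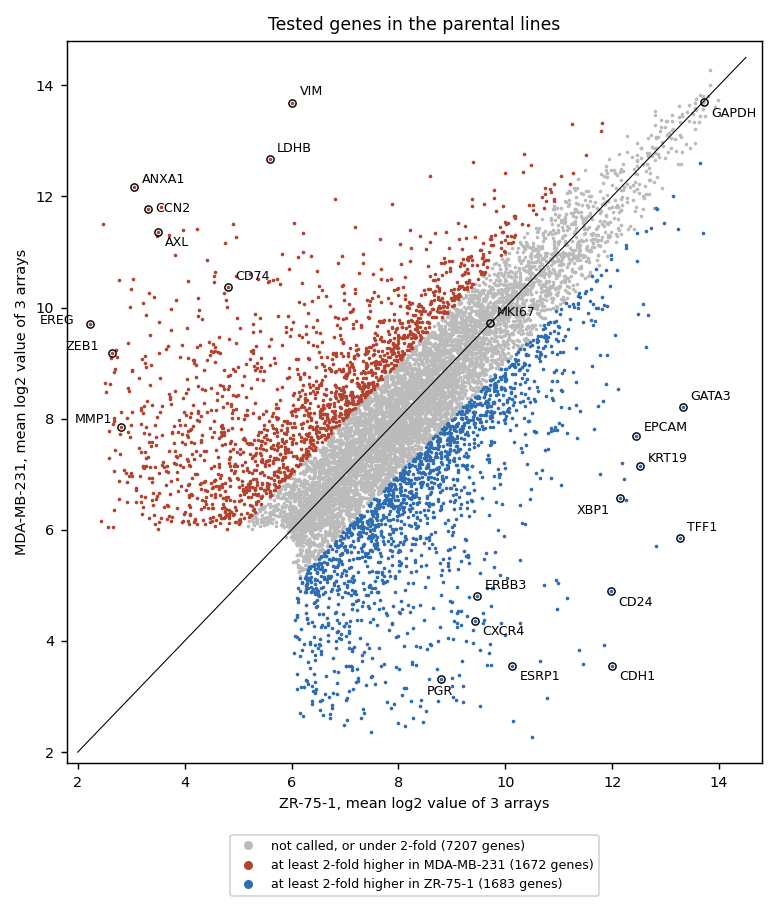
Mean log2 value of each tested gene in ZR-75-1 (x axis) and MDA-MB-231 (y axis), 3 arrays each, with the line of equal values and selected genes circled. The 1672 red and 1683 blue genes were at least 2-fold higher in MDA-MB-231 and ZR-75-1, respectively, and MKI67 and GAPDH lie on the line of equal values.

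The genes with the largest differences in favor of MDA-MB-231 included adhesion, matrix and cytoskeletal genes and also metabolic enzymes. LDHB, a subunit of lactate dehydrogenase, was at 12.83, 12.81 and 12.79 in MDA-MB-231 and at 3.41, 2.73 and 2.64 in ZR-75-1 at its most different probe set, a log2 difference of 9.88 ± 0.18 (SE, limma adjusted p = 1.06e-09). GPX1, the cytosolic glutathione peroxidase, was at 11.28 to 11.33 in MDA-MB-231 and 3.50 to 3.82 in ZR-75-1, a difference of 7.59 ± 0.09. AKR1C3, a reductase of steroids and prostaglandins, was at 10.47 to 10.54 and 2.93 to 3.16. For each of these enzymes ZR-75-1 was under 6 on all 3 arrays. The wide gap between the lines follows from choosing the largest differences without overlap between the arrays. The other genes of this group were ANXA1, EDIL3, SRGN, CCN2, IGFBP7, COL13A1, CDC42EP3, AXL, NT5E, VIM, EMP1 and DUSP6. Their differences were 7.48 to 9.11, each at the most different probe set of the gene. At the probe set with the highest mean, CDC42EP3 differed by 4.42 and DUSP6 by 5.22.

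The genes with the largest differences in favor of ZR-75-1 were led by CDH1, which encodes E-cadherin. Each gene was again taken at its most different probe set, which for ESR1 and CD24 was not the one with the highest mean. ABAT, which breaks down the transmitter GABA, was at 2.20, 2.31 and 2.32 in MDA-MB-231 and at 10.44, 10.60 and 10.48 in ZR-75-1, a difference of -8.23 ± 0.06 (limma adjusted p = 6.15e-11). SELENOP, the secreted selenium carrier, was at 2.84 to 3.23 in MDA-MB-231 and 10.70 to 10.91 in ZR-75-1. SULF2, which removes sulfate groups from heparan sulfate, differed by -7.54 ± 0.11. Beside these stood the long noncoding RNA DSCAM-AS1, the estrogen-induced genes GREB1, TFF1, TPD52L1 and SCUBE2, the receptors ESR1 and GHR, the apical protein gene MAL2, the surface protein gene CD24, the splicing factor ESRP1 and LRATD1. Within MDA-MB-231 the values of TFF1 spread from 5.35 to 6.50, the widest of these 15 genes, and remained far below the 13.22 to 13.34 of ZR-75-1.

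**Figure D2:**
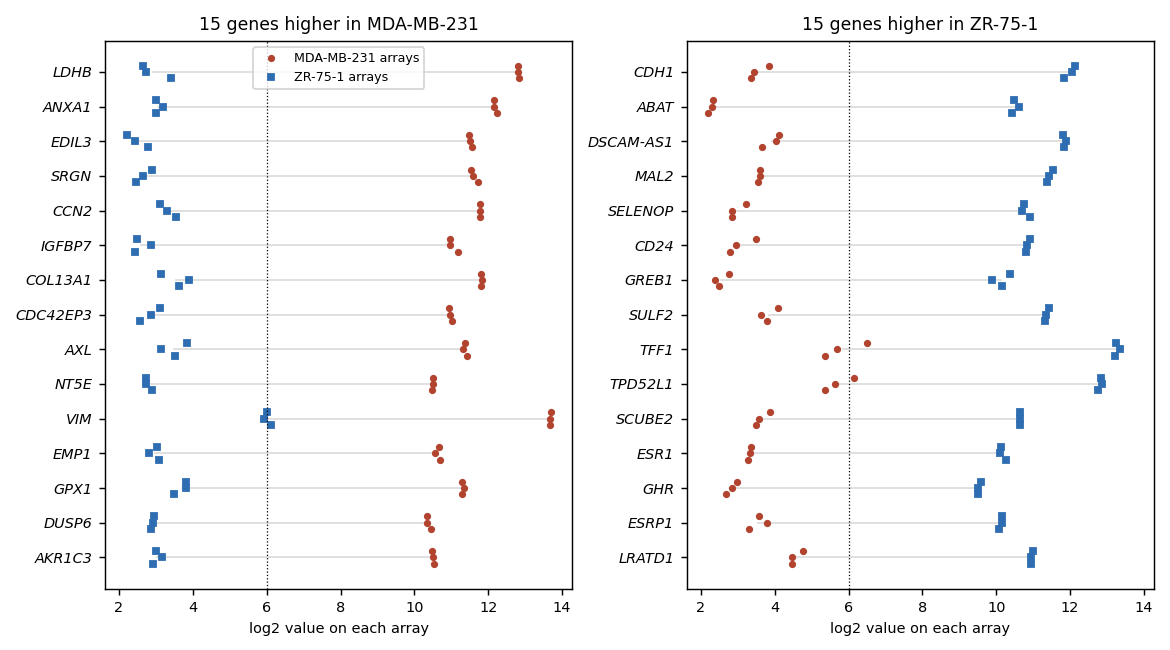
Log2 value on each array for the 15 genes with the largest difference in each direction, red circles for the 3 MDA-MB-231 arrays and blue squares for the 3 ZR-75-1 arrays, with a dotted line at the filter level of 6. Each gene is shown at its most different probe set. The arrays of the lines do not overlap for any of the 30 genes, which was part of how they were chosen, and in all but TFF1, TPD52L1 and VIM the lower line stays under 6 on all 3 arrays.

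Genes were next grouped in 30 lists by role, and each list is given by the number of members tested and at least 2-fold different. These counts stand beside the 15.8% and 15.9% of all tested genes that were at least 2-fold higher in MDA-MB-231 and ZR-75-1. A member that passed the filter only through the line in which it is high had to differ, so the counts over members at 6 or more on all arrays of both lines follow, beside the 10.5% and 11.6% of all genes measured that way. The median of all tested genes was -0.01, with quartiles at -0.62 and 0.59.

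**Figure D3:**
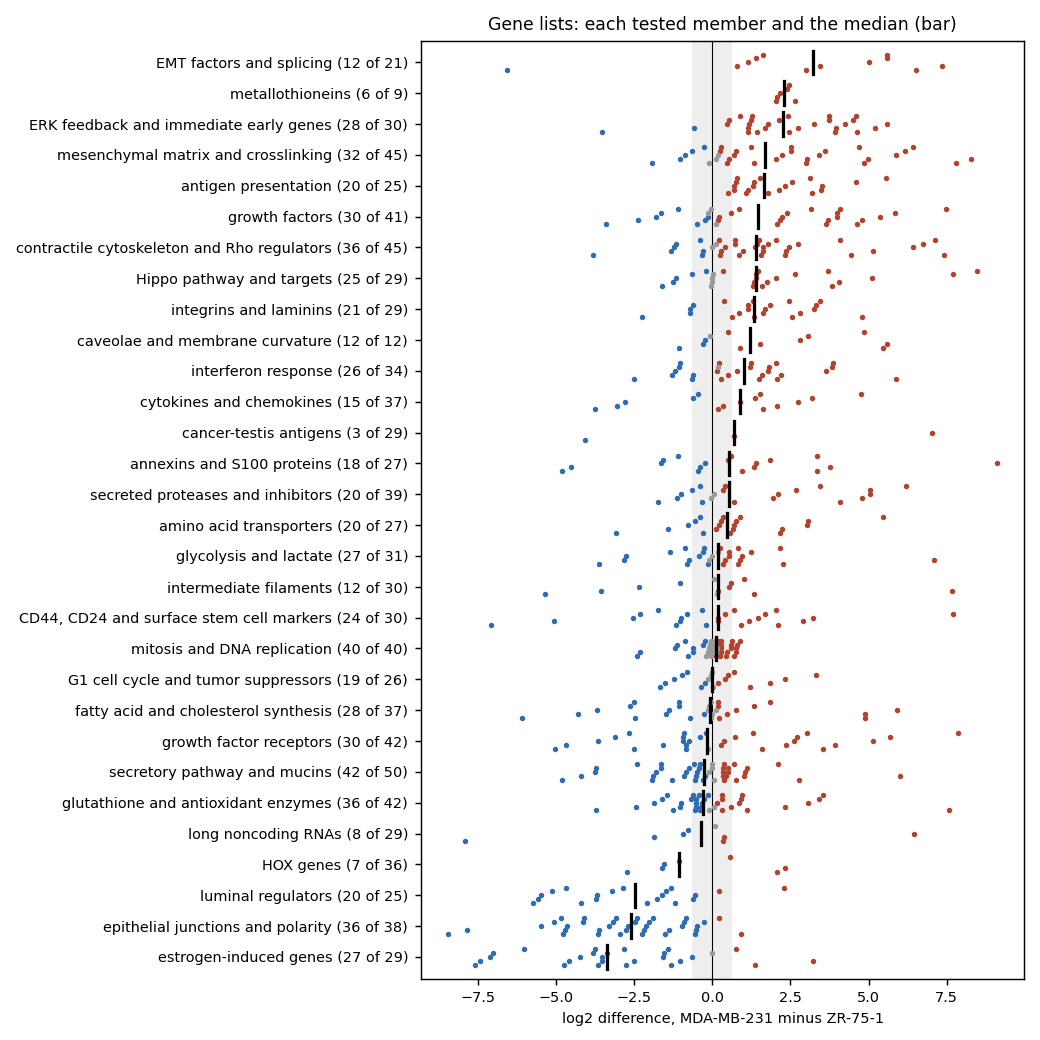
Log2 difference, MDA-MB-231 minus ZR-75-1, of each tested member of 30 gene lists, with the list median as a black bar and the quartiles of all genes as a gray band. Red and blue points passed the test as higher in MDA-MB-231 and ZR-75-1, gray points did not, and the numbers in parentheses are members tested of members listed. Estrogen-induced, epithelial and luminal regulator genes have the lowest medians, and EMT factors, metallothioneins and ERK feedback genes the highest.

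Transcription factors of luminal cells were higher in ZR-75-1. Of 25 listed regulators 20 were tested, and 16 of them (80.0%) were at least 2-fold higher in ZR-75-1 against 15.9% of all genes, with a list median of -2.47. Of the 10 at 6 or more on all arrays of both lines, 7 were at least 2-fold higher in ZR-75-1. GATA3 was at 8.18, 8.12 and 8.32 in MDA-MB-231 and at 13.30, 13.32 and 13.35 in ZR-75-1, a difference of -5.12 ± 0.06 (limma adjusted p = 2.30e-10). FOXA1, which opens chromatin for the estrogen receptor, was at 6.10, 6.04 and 6.20 against 10.34, 10.22 and 10.40. PGR, the progesterone receptor gene, was at 3.17 to 3.39 against 8.61 to 8.93. All 3 genes were thus lower on every MDA-MB-231 array than on any ZR-75-1 array, and GATA3 and FOXA1 still reached 6 in MDA-MB-231. XBP1, a factor of secretory cells, differed by -5.57, the grainyhead factor GRHL1 by -5.75, and MYB by -4.68. EHF, an epithelial ETS factor, went the other way, with 6.20 to 6.32 in MDA-MB-231 and 3.91 to 4.14 in ZR-75-1, a difference of 2.29 ± 0.08, and KLF5 was also higher in MDA-MB-231, by 0.22.

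ESR1 depended on the probe set. The probe set with the highest mean, whose name marks it as open to binding several transcripts, gave 6.64 in MDA-MB-231 against 7.19 in ZR-75-1, a difference of -0.55 ± 0.15 (limma adjusted p = 0.00916). A probe set without that mark gave 3.27, 3.32 and 3.35 in MDA-MB-231 and 10.25, 10.09 and 10.14 in ZR-75-1, a difference of -6.85 ± 0.06 (limma adjusted p = 7.45e-11), and another gave -1.10. All 3 probe sets were higher in ZR-75-1, and the size of the difference varied between them.

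Genes known to be induced by estrogen followed in the same direction. All but 2 of the 29 listed genes were tested, and 22 of the 27 (81.5%) were at least 2-fold higher in ZR-75-1, with a median of -3.36. Of these 27, 14 passed the filter only through ZR-75-1. Of the 13 at 6 or more on all arrays of both lines, 8 were at least 2-fold higher in ZR-75-1 against 2 in MDA-MB-231, with a median of -1.42. GREB1, a cofactor of the estrogen receptor, was at 2.50, 2.39 and 2.77 in MDA-MB-231 and at 10.14, 9.89 and 10.38 in ZR-75-1, a difference of -7.58 ± 0.14 (limma adjusted p = 1.01e-09). NRIP1, a corepressor of nuclear receptors, differed by -6.02, RERG, a small GTPase, by -4.73, and RET, a receptor tyrosine kinase, by -3.67. IGFBP4, which binds insulin-like growth factors, was the main exception, at 12.55, 12.64 and 12.65 in MDA-MB-231 and at 9.47, 9.36 and 9.37 in ZR-75-1. MYBL1 and IRS1 were also higher in MDA-MB-231, by 1.37 and 0.76. CCND1, which encodes cyclin D1, was at 10.48 in both lines, a difference of -0.01 ± 0.05 that did not pass the test, while its other probe set gave -0.91.

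The junction and polarity genes of epithelial cells were higher in ZR-75-1 with few exceptions. Of 38 listed genes 36 were tested, 34 were called higher in ZR-75-1 and 2 in MDA-MB-231, beside 42.0% and 41.5% of all genes. At least 2-fold higher in ZR-75-1 were 27 (75%), and the list median was -2.58. Of the 17 at 6 or more on all arrays of both lines, 8 were at least 2-fold higher in ZR-75-1 and 0 in MDA-MB-231. CDH1 was at 3.37, 3.44 and 3.86 in MDA-MB-231 and at 11.84, 12.04 and 12.12 in ZR-75-1, a difference of -8.45 ± 0.13 (limma adjusted p = 5.04e-10). EPCAM, an adhesion protein of epithelial cells, was at 7.64 to 7.71 against 12.40 to 12.51. E-cadherin RNA was therefore below the filter level on every MDA-MB-231 array, whereas EPCAM RNA was lower than in ZR-75-1 but above it. PATJ, a scaffold of the apical Crumbs complex, differed by -5.50, MARVELD2, the tricellulin gene, by -4.84, and SPINT1, a protease inhibitor of the cell surface, by -4.71. JUP, which links cadherins to the cytoskeleton, differed by -4.13. The exceptions were the desmosomal cadherin DSG2, 0.93 higher in MDA-MB-231, and EVPL, 0.20 higher.

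The E-box bound by ZEB and SNAIL family factors, CACCTG or its reverse complement CAGGTG, was looked for in the 250 bases before the transcription start of 8725 tested genes with a RefSeq promoter. It was present in 1334 of them (15.3%). It was present in 175 of 1374 promoters (12.7%) of genes at least 2-fold higher in MDA-MB-231 and in 268 of 1303 (20.6%) of genes at least 2-fold higher in ZR-75-1. Of the 36 tested junction and polarity genes, 22 had a promoter that could be searched, and CDH1 was not among them. Of these 22 promoters the E-box was present in 11 (50%), those of AP1M2, CDS1, CRB3, DSC2, DSG2, DSP, MYO5B, MYO5C, OCLN, PATJ and RAB25. DSG2, which was 0.93 higher in MDA-MB-231, is among these. So are CRB3, AP1M2, OCLN and MYO5B, which differed by less than 2-fold, by -0.95, -0.90, -0.50 and -0.26. A match is a description of the letters and not a site of binding. Shown are 4 of these promoters whose genes were at least 12-fold higher in ZR-75-1, 5′ to 3′ on the strand of the gene (GRCh38.p14, RefSeq) and up to the base before the start, with the E-box letters in capitals. None of these capitals overlapped a match of the other motifs searched.
CDS1 promoter (chr4:84582877-84583126, + strand): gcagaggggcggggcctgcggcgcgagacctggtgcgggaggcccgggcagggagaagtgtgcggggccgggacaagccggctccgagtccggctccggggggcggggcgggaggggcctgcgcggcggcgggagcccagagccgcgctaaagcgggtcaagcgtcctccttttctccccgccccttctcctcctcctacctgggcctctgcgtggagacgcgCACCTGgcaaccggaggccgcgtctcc
DSP promoter (chr6:7541421-7541670, + strand): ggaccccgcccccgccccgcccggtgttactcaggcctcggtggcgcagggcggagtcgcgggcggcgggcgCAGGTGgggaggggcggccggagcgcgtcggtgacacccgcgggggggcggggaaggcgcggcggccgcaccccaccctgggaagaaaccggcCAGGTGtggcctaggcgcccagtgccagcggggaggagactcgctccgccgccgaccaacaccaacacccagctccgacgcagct
PATJ promoter (chr1:61742230-61742479, + strand): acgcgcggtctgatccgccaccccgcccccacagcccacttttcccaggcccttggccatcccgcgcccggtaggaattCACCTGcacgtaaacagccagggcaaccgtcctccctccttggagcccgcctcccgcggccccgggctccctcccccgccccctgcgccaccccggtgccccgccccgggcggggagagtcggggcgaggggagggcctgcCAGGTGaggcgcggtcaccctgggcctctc
RAB25 promoter (chr1:156060910-156061159, + strand): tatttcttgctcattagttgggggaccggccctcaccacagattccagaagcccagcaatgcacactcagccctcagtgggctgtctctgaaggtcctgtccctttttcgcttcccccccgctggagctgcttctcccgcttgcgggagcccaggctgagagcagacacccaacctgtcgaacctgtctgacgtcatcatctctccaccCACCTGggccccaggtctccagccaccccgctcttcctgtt

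The 4 genes stand for different parts of the epithelial cell. CDS1, an enzyme of phospholipid synthesis in epithelial cells, was at 4.38, 4.61 and 4.53 in MDA-MB-231 and at 9.35, 9.76 and 9.61 in ZR-75-1. DSP, the desmosomal protein desmoplakin, was at 6.91, 7.12 and 7.20 against 10.71, 10.58 and 10.77. RAB25, a small GTPase of apical recycling, was at 4.67, 4.67 and 4.26 against 9.14, 9.26 and 9.12. The arrays of the lines did not overlap in any of them, which follows from choosing genes at least 12-fold higher in ZR-75-1. DSP, whose promoter holds 2 E-boxes at 178 and 85 bases before the start, had the smallest difference of the 4, -3.61 ± 0.09. PATJ also holds 2, at 171 and 30 bases before the start. CDS1 and RAB25 hold 1 each, at 27 and 41 bases.

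Among the listed ZEB and SNAIL family factors, ZEB1 and SNAI2 were tested and were higher in MDA-MB-231. Whether they act on the promoters shown was not tested. ZEB1 was at 9.18 on all 3 MDA-MB-231 arrays and at 2.55, 2.85 and 2.55 on the ZR-75-1 arrays, a difference of 6.53 ± 0.08 (limma adjusted p = 2.66e-10), and its other probe sets gave 5.15 and 3.69. SNAI2 was at 9.04, 8.92 and 8.94 against 3.13, 3.59 and 3.36. Of the 21 listed EMT and splicing factors 12 were tested, and 10 of them (83.3%) were at least 2-fold higher in MDA-MB-231 against 15.8% of all genes. Of the 12, 8 passed the filter only through MDA-MB-231, and of the 3 at 6 or more on all arrays of both lines 2 were at least 2-fold higher in MDA-MB-231. The list includes factors known for this role, so its direction follows in part from how it was drawn up. SNAI1, TWIST1, TWIST2, ZEB2 and PRRX1 did not reach the filter level. HMGA2, a chromatin protein of embryonic tissues, differed by 5.01 and ETS1 by 7.35. ESRP1, the splicing regulator of epithelial cells, was at 3.31, 3.79 and 3.58 in MDA-MB-231 and at 10.08, 10.16 and 10.15 in ZR-75-1. The splicing factors MBNL1, QKI and RBFOX2 were higher in MDA-MB-231 by 1.38, 1.13 and 0.80.

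Intermediate filament genes divided between the lines. VIM, the vimentin gene, was at 13.68, 13.68 and 13.69 in MDA-MB-231 and at 6.12, 5.92 and 6.02 in ZR-75-1. The luminal keratin genes KRT19, KRT8 and KRT18 were higher in ZR-75-1 by 5.37, 3.57 and 2.36 on the log2 scale, and KRT18 was at 11.29 to 11.36 in MDA-MB-231. MDA-MB-231 therefore had vimentin and keratin 18 RNA together. LMNB1 was 1.03 higher in ZR-75-1, LMNB2 1.02 higher in MDA-MB-231, and KRT7 and NES did not pass the test. Of the 30 listed genes 12 were tested, 13 did not reach the filter level, among them the basal keratins KRT5 and KRT14, and 5 had no usable probe set. Of the 10 at 6 or more on all arrays of both lines, 1 was at least 2-fold higher in MDA-MB-231 against 4 in ZR-75-1.

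Matrix and collagen-modifying genes were mostly higher in MDA-MB-231, with clear exceptions. Of 45 listed genes 32 were tested, 18 (56.3%) were at least 2-fold higher in MDA-MB-231 against 2 in ZR-75-1, with a median of 1.68. Of the 14 at 6 or more on all arrays of both lines, 1 was at least 2-fold higher in each line, and another 17 passed the filter only through MDA-MB-231. COL13A1, a transmembrane collagen, was at 11.81, 11.83 and 11.81 in MDA-MB-231 and at 3.63, 3.88 and 3.14 in ZR-75-1. The collagen crosslinking enzymes LOXL2 and LOX differed by 6.43 and 4.98, and TNC, the tenascin C gene, by 5.87. COL4A1 and COL4A2, which are transcribed from a shared promoter region, differed by 3.60 and 4.68, while COL4A5 was 1.92 higher in ZR-75-1. FN1, the fibronectin gene often used as a mesenchymal marker, was at 9.55 and 9.67, a difference of -0.12 ± 0.05 with a limma adjusted p of 0.0515, above the threshold, and 3 of its other probe sets were 0.16 to 0.26 higher in ZR-75-1. COL1A1 was at 7.27 and 7.09 at its brightest probe set and did not pass the test, whereas its other probe sets were 2.27 and 3.62 higher in ZR-75-1.

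Integrin and laminin genes, whose products attach cells to the matrix, also lay mostly on the MDA-MB-231 side. Of 21 tested members of 29, 14 (66.7%) were at least 2-fold higher in MDA-MB-231, and 5 of the 11 at 6 or more on all arrays of both lines. LAMB3, a chain of the basement membrane laminins, differed by 4.78, and the integrin alpha chains ITGA6, ITGA1, ITGA2 and ITGA3 by 3.45, 3.32, 3.27 and 2.80. ITGB4, the partner of ITGA6 in hemidesmosomes, went against its partner, at 6.03, 5.87 and 5.69 in MDA-MB-231 and 8.10, 8.15 and 8.10 in ZR-75-1, a difference of -2.26 ± 0.08.

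The coat genes of caveolae were higher in MDA-MB-231. All 12 listed caveola and membrane curvature genes were tested, and 6 (50%) were at least 2-fold higher in MDA-MB-231 against 1 in ZR-75-1. Of these 12, 4 passed the filter only through MDA-MB-231. Of the 8 at 6 or more on all arrays of both lines, 2 were at least 2-fold higher in MDA-MB-231 against 1 in ZR-75-1, with a median of 0.22. The 6 genes were the coat genes CAV1, CAV2, CAVIN1, CAVIN2 and CAVIN3, by 2.80 to 5.58, and EHD2, by 1.53. PACSIN3, a membrane-bending protein gene, was at 6.26 to 6.38 in MDA-MB-231 and 7.37 to 7.44 in ZR-75-1, a difference of -1.07 ± 0.05 (limma adjusted p = 2.19e-07). The flotillin genes FLOT1 and FLOT2, which mark other membrane domains, were slightly higher in ZR-75-1, by 0.30 and 0.23 on the log2 scale. CAV3, the muscle form, did not pass the test.

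Genes of the contractile cytoskeleton were tested for 36 of 45 members, with 19 (52.8%) at least 2-fold higher in MDA-MB-231 against 4 in ZR-75-1, and 11 against 3 of the 25 at 6 or more on all arrays of both lines. MSN, which encodes the membrane linker moesin, was at 11.40 on all 3 MDA-MB-231 arrays and at 4.32, 3.99 and 3.62 in ZR-75-1. Its relative EZR was at 10.09 and 9.96 and did not pass the test. The actin-binding proteins PLS3, CNN3 and CALD1 differed by 7.12, 6.75 and 6.41. RHOB, a small GTPase, was the largest exception, at 7.80 to 7.86 in MDA-MB-231 and 11.61 to 11.72 in ZR-75-1, whereas RHOA was 0.73 higher in MDA-MB-231 and RHOC 1.21 higher in ZR-75-1.

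The Hippo pathway restrains the coactivators YAP1 and WWTR1 through the kinases of the STK3, STK4, LATS1 and LATS2 genes, and YAP1 binds DNA through TEAD factors. Of 29 listed genes 25 were tested, and 15 (60%) were at least 2-fold higher in MDA-MB-231 against 3 in ZR-75-1, as were 11 and 3 of the 21 at 6 or more on all arrays of both lines. The targets had the largest differences. CCN2 was at 11.77, 11.77 and 11.78 in MDA-MB-231 and at 3.55, 3.30 and 3.10 in ZR-75-1, a difference of 8.46 ± 0.10 (limma adjusted p = 2.30e-10), and CCN1 was at 11.91 to 11.97 against 6.76 to 6.90. F3, the tissue factor gene, differed by 4.07. The coactivators YAP1 and WWTR1 themselves differed by 1.75 and 2.66. Within the kinases the direction alternated between paralogs: STK4 and LATS2 were higher in MDA-MB-231, by 2.04 and 1.40, and STK3 and LATS1 higher in ZR-75-1, by 1.17 and 1.26. NF2, an upstream activator of the pathway, was 1.61 higher in ZR-75-1. Of the DNA-binding partners TEAD1 was 1.39 higher in MDA-MB-231, TEAD2 and TEAD3 were 0.66 and 0.21 higher in ZR-75-1, and TEAD4 did not pass the test.

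The promoter of CCN2 is shown because CCN2 had the largest difference of the list. The TEAD motif GGAATG or its reverse complement CATTCC is in capitals, and the run is written 5′ to 3′ on the strand of the gene (GRCh38.p14, RefSeq). It held 3 matches, at 169, 104 and 95 bases before the start.
CCN2 promoter (chr6:131951373-131951622, - strand): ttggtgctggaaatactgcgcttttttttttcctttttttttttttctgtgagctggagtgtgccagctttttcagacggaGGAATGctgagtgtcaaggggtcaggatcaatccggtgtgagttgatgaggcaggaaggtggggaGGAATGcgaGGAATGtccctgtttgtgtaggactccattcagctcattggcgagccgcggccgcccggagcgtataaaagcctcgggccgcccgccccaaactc
The motif was present in 785 of 8725 promoters (9.0%), in 145 of 1374 (10.6%) of genes at least 2-fold higher in MDA-MB-231, in 103 of 1303 (7.90%) of those at least 2-fold higher in ZR-75-1, and in 3 of the 18 promoters of the Hippo list.

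Receptor genes of the ERBB family went in opposite directions, whereas the genes of several of their ligands were higher in MDA-MB-231. EGFR was at 9.94, 9.96 and 9.95 in MDA-MB-231 and at 4.10, 4.21 and 4.50 in ZR-75-1, a difference of 5.68 ± 0.10 (limma adjusted p = 7.51e-10). ERBB3 was at 4.57, 4.85 and 5.00 against 9.59, 9.33 and 9.50, and ERBB4 at 2.96, 3.25 and 2.88 against 8.12, 8.06 and 8.01. ERBB2 differed least of the family, at 7.83 and 8.78. The EGFR ligand genes EREG and HBEGF differed by 7.46 and 5.37 in favor of MDA-MB-231, and TGFA by 0.60. NRG1, whose product is a ligand of the receptors ERBB3 and ERBB4, was at 9.20, 9.08 and 9.10 in MDA-MB-231 and at 3.19, 3.55 and 3.05 in ZR-75-1. The RNA of this ligand was thus high in the line in which the RNA of both receptors was below the filter level.

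Over the whole receptor list, the ERBB genes included, members lay on both sides. Of 30 tested members of 42, 11 were at least 2-fold higher in MDA-MB-231 against 7 in ZR-75-1, and the median was -0.16. Of the 18 at 6 or more on all arrays of both lines, 5 against 2 were. The FGF receptor genes split, with FGFR1 2.61 higher in MDA-MB-231 and FGFR2 and FGFR3 higher in ZR-75-1 by 3.11 and 2.51. AXL and MERTK, which share the ligand GAS6 with TYRO3, were higher in MDA-MB-231 by 7.87 and 2.71, while TYRO3 was 0.19 higher in ZR-75-1 at its brightest probe set and 0.45 higher in MDA-MB-231 at its other one. TGFBR2 and TGFBR3 differed by 3.93 and 3.53, and EPHA2 by 5.15. BMPR1B, the receptor gene for bone morphogenetic proteins, was 2.67 higher in ZR-75-1. Of 30 tested growth factor genes of 41, 15 (50%) were at least 2-fold higher in MDA-MB-231 against 5 in ZR-75-1. Of the 30, 11 passed the filter only through MDA-MB-231 and 6 only through ZR-75-1. Of the 13 at 6 or more on all arrays of both lines, 5 were at least 2-fold higher in MDA-MB-231 against 0 in ZR-75-1, and the median of 1.47 over the 30 was 0.21 over these 13. Those higher in MDA-MB-231 included WNT5A and WNT5B, by 4.63 and 4.07, and the WNT inhibitor DKK1, by 3.98. INHBB, the activin B subunit, was 3.40 higher in ZR-75-1, and JAG1 and JAG2, ligands of NOTCH, went in opposite directions, by 2.40 and -1.79.

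Genes that respond to the kinase ERK, including its feedback inhibitors, were higher in MDA-MB-231 almost throughout. Of 28 tested members of 30, 26 were called higher in MDA-MB-231, beside 41.5% of all genes. At least 2-fold higher in MDA-MB-231 were 23 (82.1%), and the list median was 2.27. Of the 15 at 6 or more on all arrays of both lines, 11 were at least 2-fold higher in MDA-MB-231 against 0 in ZR-75-1. The AP-1 subunit gene FOSL1 was at 10.62, 10.53 and 10.52 in MDA-MB-231 and at 5.03, 4.73 and 5.15 in ZR-75-1, a difference of 5.59 ± 0.10 (limma adjusted p = 1.08e-09). DUSP6, a phosphatase of ERK, differed by 5.22 at its brightest probe set and by 7.48 at its most different. The PEA3 factor genes ETV4 and ETV5 differed by 4.64 and 4.51, and the inhibitor genes SPRY2, SPRY4, SPRY1 and SPRED1 by 3.73 to 4.60. EGR3, which estrogen also induces, was the exception at 3.31, 3.62 and 3.70 in MDA-MB-231 and 6.78, 7.05 and 7.38 in ZR-75-1, and JUND was 0.60 higher in ZR-75-1. MYC was higher in MDA-MB-231 by 0.48. The AP-1 motif TGANTCA was present in 308 of 8725 promoters (3.53%), in 75 of 1374 (5.46%) of genes at least 2-fold higher in MDA-MB-231 and in 40 of 1303 (3.07%) of those at least 2-fold higher in ZR-75-1, and in 0 of the 19 promoters of the ERK list. The forkhead motif TGTTTAC was present in 163 (1.87%), 35 (2.55%) and 22 (1.69%) of the same promoters, and the palindromic estrogen response element, GGTCA and TGACC with any 3 bases between, in 1 of the 8725. The median GC content of these windows was 65.2% for all genes, 64.4% for genes at least 2-fold higher in MDA-MB-231 and 66.4% for those at least 2-fold higher in ZR-75-1.

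Genes of secreted proteases and of cytokines were tested in part, because many did not reach the filter level. Of 39 protease and inhibitor genes 20 were tested, with 9 at least 2-fold higher in MDA-MB-231 against 2 in ZR-75-1. Of the 20, 5 passed the filter only through MDA-MB-231 and 2 only through ZR-75-1, and of the 13 at 6 or more on all arrays of both lines, 4 against 0 were at least 2-fold higher. The plasminogen activator genes PLAT and PLAU differed by 6.19 and 5.05, the urokinase receptor PLAUR by 4.09, and the collagenase MMP1 was at 7.80, 7.76 and 8.02 against 2.82, 2.98 and 2.66. Inhibitor genes were also higher in MDA-MB-231, TIMP2 by 4.78 and TIMP3 by 3.43. MMP9, a gelatinase, was 1.13 higher in ZR-75-1, and the lysosomal CTSB and CTSL did not pass the test. Of 37 cytokine genes 15 were tested, with 7 at least 2-fold higher in MDA-MB-231 against 3 in ZR-75-1. Of the 15, 7 passed the filter only through MDA-MB-231 and 3 only through ZR-75-1, and of the 5 at 6 or more on all arrays of both lines, 1 was at least 2-fold higher in MDA-MB-231 against 0 in ZR-75-1. The count thus followed the filter, and it was 13 without a filter and 3 with a filter at 7. IL11, a cytokine that promotes bone resorption, differed by 4.75 and CXCL8 by 2.74. CXCL12 and its receptor CXCR4 were both higher in ZR-75-1. CXCR4 was at 4.42, 4.19 and 4.48 in MDA-MB-231 and at 9.41, 9.44 and 9.44 in ZR-75-1, and all 3 of its probe sets were at least 3.05 higher there on the log2 scale. CXCL12 was at 4.58 to 4.76 against 8.37 to 8.45. The paper describes CXCR4 protein on Western blots as high in B6TC cells, as in MDA-MB-231 cells, and RNA and protein are unlike measures.

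Antigen presentation genes were higher in MDA-MB-231 in every tested case. All 20 tested members of 25 were called higher in MDA-MB-231, beside 41.5% of all genes. Of the 20, 15 (75%) were at least 2-fold higher, as were 6 of the 11 at 6 or more on all arrays of both lines. CD74, the invariant chain of MHC class II, was at 10.44, 10.32 and 10.33 in MDA-MB-231 and at 4.81, 5.05 and 4.59 in ZR-75-1, a difference of 5.55 ± 0.11 (limma adjusted p = 1.46e-09). The class II chain HLA-DRA differed by 3.21, the peptide transporter TAP2 by 4.60, and the immunoproteasome subunits PSMB8 and PSMB9 by 3.51 and 3.48. B2M and the class I genes HLA-B, HLA-C and HLA-E differed by 0.80 to 2.13. CD274, which encodes PD-L1, differed by 3.13. HLA genes are close relatives that vary between people, so probe sets for them may read several genes or fit the alleles of the lines differently. Interferon-induced genes were less uniform: of 26 tested members of 34, 13 were at least 2-fold higher in MDA-MB-231 against 5 in ZR-75-1, with a median of 1.01. Of the 26, 12 passed the filter only through MDA-MB-231 and 4 only through ZR-75-1. Of the 10 at 6 or more on all arrays of both lines, 3 against 1 were at least 2-fold higher, with a median of 0.20. IFI16, a sensor of DNA, was at 9.06 to 9.09 against 3.09 to 3.39, and the guanylate-binding proteins GBP3 and GBP1 differed by 3.88 and 3.64. The RNA sensors RIGI and IFIH1 went in opposite directions, 2.03 and -2.50, and the regulators IRF7 and IRF9 were 1.21 and 1.03 higher in ZR-75-1.

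Cell division genes were the most even group. All 40 listed mitosis and replication genes were tested and were at 6 or more on all arrays of both lines. Of these, 0 were at least 2-fold higher in MDA-MB-231 against 4 (10%) in ZR-75-1, beside 10.5% and 11.6% of all genes measured that way. The share on the ZR-75-1 side was thus near that of all genes. Of the 40, 18 were called higher in MDA-MB-231, 10 in ZR-75-1 and 12 did not pass the test, and the median was 0.11. The proliferation marker MKI67 was at 9.72 and 9.70, a difference of 0.02 ± 0.05, and its other probe sets were 0.05 to 0.56 higher in MDA-MB-231. The 4 genes were GINS1, CDT1, GINS2 and MCM6, whose products license or fire replication origins, with differences of -2.40, -2.33, -1.20 and -1.14. A second tested probe set of GINS2 gave 0.06 and did not pass the test. GINS1 was at 8.13, 8.08 and 8.11 in MDA-MB-231 and at 10.50, 10.49 and 10.52 in ZR-75-1. Of 19 tested G1 and tumor suppressor genes of 26, 4 (21.1%) were at least 2-fold higher in MDA-MB-231 against 3 (15.8%) in ZR-75-1. These shares were near those of all genes, and the median was -0.01. Of the 16 at 6 or more on all arrays of both lines, 1 against 3 were. Single members differed more: CDK6 was 3.32 higher in MDA-MB-231 and its relative CDK4 was 0.36 higher in ZR-75-1. The inhibitors CDKN1B and CDKN1A were 1.67 and 1.23 higher in ZR-75-1, and CDKN1C was 2.32 higher in MDA-MB-231. MDM2, a ubiquitin ligase, was 1.53 higher in ZR-75-1.

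Metabolic genes showed large differences in single members of lists with medians near 0. Of 36 tested glutathione and antioxidant genes, 6 (16.7%) were at least 2-fold higher in MDA-MB-231 against 8 (22.2%) in ZR-75-1, with a median of -0.31. Of the 29 at 6 or more on all arrays of both lines, 2 against 7 were. In that list GPX1, GPX8, GSTP1 and the cystine transporter SLC7A11 were higher in MDA-MB-231, by 7.59, 3.53, 3.40 and 3.07, and GSTO2, GSR and GPX3 were higher in ZR-75-1, by 3.71, 2.43 and 1.87. GSTM3 was 1.62 higher in ZR-75-1 at its brightest probe set and 0.71 higher in MDA-MB-231 at another. All 6 tested metallothionein genes of 9 were at least 2-fold higher in MDA-MB-231, by 2.05 to 2.65, but these genes are near-identical copies whose probe sets may cross-hybridize, so they are not separate observations. Of 27 tested glycolysis genes 24 were called, beside 83.5% of all genes, and 4 were at least 2-fold higher in each line, a fraction near the share of all genes. Their median absolute difference was 0.82, against 0.61 for all genes. Of the 23 at 6 or more on all arrays of both lines, 1 was at least 2-fold higher in MDA-MB-231 against 3 in ZR-75-1. LDHB was at 12.65 to 12.69 against 5.52 to 5.64 at its brightest probe set, LDHA differed by 0.24, and GAPDH by -0.02, which did not pass the test. FBP1, an enzyme of gluconeogenesis, was 2.83 higher in ZR-75-1.

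Lipid and secretory genes differed in a similar way. Of 28 tested genes of fatty acid and cholesterol synthesis, 5 (17.9%) were at least 2-fold higher in MDA-MB-231 against 10 (35.7%) in ZR-75-1, as were 2 and 8 of the 23 at 6 or more on all arrays of both lines. The share on the MDA-MB-231 side was near that of all genes. The elongase genes ELOVL2 and ELOVL7 were 6.09 and 4.31 higher in ZR-75-1, as were the cholesterol synthesis genes SQLE, HMGCS1 and DHCR7, by 3.69, 2.65 and 2.50. FABP5, a fatty acid carrier, was at 10.45 to 10.47 in MDA-MB-231 and 4.52 to 4.58 in ZR-75-1. FASN, the fatty acid synthase gene, did not pass the test, with a difference of 0.11. Of 42 tested secretory and mucin genes, 6 (14.3%) were at least 2-fold higher in MDA-MB-231, near the share of all genes, against 11 (26.2%) in ZR-75-1. Of the 34 at 6 or more on all arrays of both lines, 3 against 6 were. Among those higher in ZR-75-1 were AGR2, a disulfide isomerase, and the mucin MUC1, by 4.82 and 3.76. KDELR1, a receptor that returns proteins to the endoplasmic reticulum in most cells, was at 10.56, 10.58 and 10.57 in MDA-MB-231 and at 4.29, 4.71 and 4.66 in ZR-75-1. Its second probe set also gave a difference of 5.12, and KDELR3 was 1.79 higher in ZR-75-1. Of 20 tested amino acid transporter genes, 5 were at least 2-fold higher in MDA-MB-231 against 2 in ZR-75-1, as were 2 in each line of the 14 at 6 or more on all arrays of both, and the main leucine and glutamine carriers SLC7A5 and SLC1A5 differed by 0.13 and 0.27.

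Smaller families showed members on both sides. Of 18 tested annexin and S100 genes, 7 were at least 2-fold higher in MDA-MB-231 against 5 in ZR-75-1, as were 3 in each line of the 12 at 6 or more on all arrays of both. ANXA1 differed by 9.11 and ANXA9 by -4.82, S100A6 and S100A4 by 3.77 and 3.35, and S100A14 by -4.52. Of 36 HOX genes only 7 were tested: HOXD4 and HOXB3 were at least 2-fold higher in MDA-MB-231 and HOXB7, HOXC6, HOXC10 and HOXC11 in ZR-75-1. Of the 7, 2 passed the filter only through MDA-MB-231 and 3 only through ZR-75-1. Of the 2 at 6 or more on all arrays of both lines, 0 were at least 2-fold higher in MDA-MB-231 against 1 in ZR-75-1. Of 29 cancer-testis genes 3 were tested, 2 of which passed the filter only through MDA-MB-231 and 1 only through ZR-75-1. MAGEA6, which has near-identical relatives, was at 10.00, 10.00 and 10.04 in MDA-MB-231 and at 3.38, 2.80 and 2.74 in ZR-75-1. DDX43 was at 2.86 to 3.00 against 6.98 to 7.08. Of the 8 tested long noncoding RNAs of 29, MIR100HG differed by 6.47, DSCAM-AS1 by -7.91 and MALAT1 by -1.87. Of these 8, 5 were at 6 or more on all arrays of both lines, with 0 at least 2-fold higher in MDA-MB-231 against 1 in ZR-75-1. Of 24 tested surface and stem cell genes, 8 were at least 2-fold higher in MDA-MB-231 against 7 in ZR-75-1, as were 5 and 3 of the 16 at 6 or more on all arrays of both lines. CD44, the hyaluronan receptor gene, was at 11.42, 11.19 and 11.26 in MDA-MB-231 and at 8.38, 8.42 and 8.38 in ZR-75-1, and CD24 at 4.66, 4.96 and 5.05 against 11.86, 12.03 and 12.04. All 7 probe sets of CD44 and all 6 of CD24 had the same direction, by 2.29 to 2.90 and by -4.23 to -7.77.

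The split within families was set out for 32 pairs of related genes or of genes with known opposite roles, in which the first is known from basal or mesenchymal cells, or the 2 are isoenzymes. Both genes were tested in 26 pairs. Of all tested genes, 83.5% were called in either direction. In 14 pairs the genes were called in opposite directions, in 11 in the same direction, and in the pair of MSN and EZR only MSN was called. In all 14 opposite pairs the first gene was the one higher in MDA-MB-231, which follows in part from how the pairs were ordered. In 8 of these 14 pairs both genes differed at least 2-fold: EGFR and ERBB3, GSTP1 and GSTM3, ANXA1 and ANXA9, CD44 and CD24, ZEB1 and GRHL2, ETS1 and ELF3, GALNT2 and GALNT6, and S100A4 and S100A14. GSTM3 and TYRO3, each the second gene of 1 of the 14 pairs, had another probe set with the opposite direction. In 4 pairs called in the same direction both genes also differed at least 2-fold, namely PLS3 and PLS1, HMGA2 and HMGA1, FOSL1 and FOS, and TGFBR2 and TGFBR3. PRKCA, a protein kinase C, differed by 5.94 and its relative PRKCD by -0.46. IGFBP5, a binding protein of insulin-like growth factors, differed by -6.13 and IGFBP6 by 0.58. LDHB and LDHA, by contrast, differed in the same direction, as did PLS3 and PLS1, by 7.12 and 1.36.

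**Figure D4:**
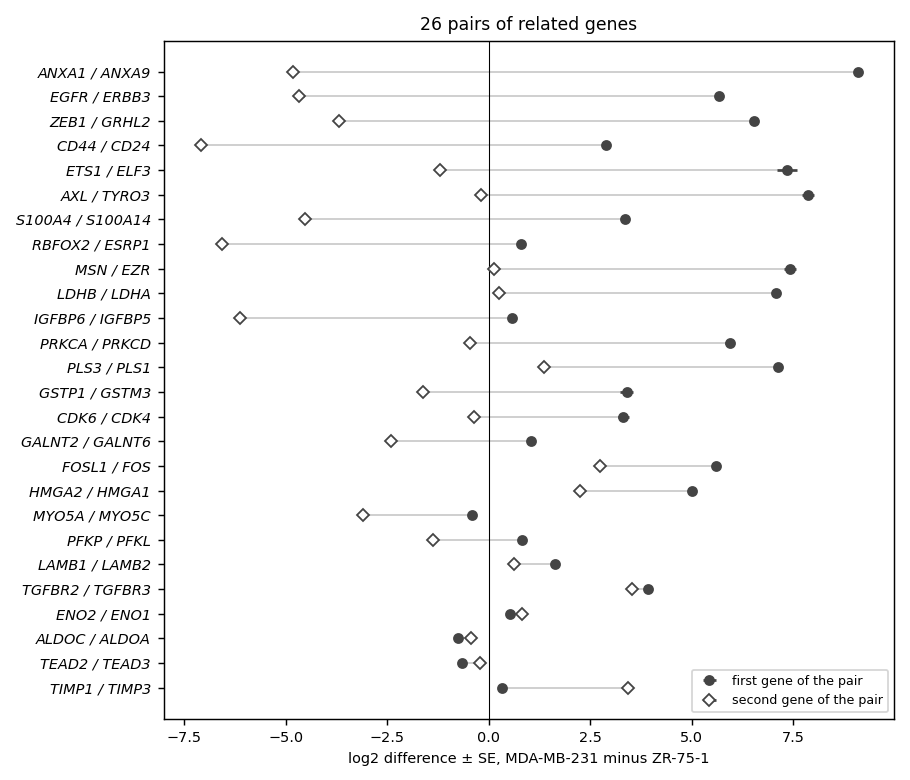
Log2 difference, MDA-MB-231 minus ZR-75-1, of both genes of 26 pairs, with the first gene as a filled circle, the second as an open diamond and bars for the SE, most of which are smaller than the symbols. Pairs are ordered by the value of the first gene minus that of the second, from ANXA1 and ANXA9 at the top to TIMP1 and TIMP3 at the bottom, and in 14 pairs the symbols were called on opposite sides of 0.

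The labels were set against marker genes of the cell types that the cultures could hold. The luminal markers PGR, FOXA1, GATA3, KRT8, KRT18, KRT19, CDH1 and EPCAM were all called higher in ZR-75-1, and the mesenchymal markers VIM, AXL, CAV1, CD44, ZEB1, SNAI2 and MSN were all called higher in MDA-MB-231. CDH2, the N-cadherin gene, was below the filter level in both lines, at 4.47 and 4.36. The leukocyte markers PTPRC, CD3E and CD14, the fibroblast markers DCN, LUM and PDGFRA and the endothelial markers CDH5 and VWF were between 2.34 and 5.23 in both lines. PECAM1 was at 6.69 and 5.60, and the fibroblast marker COL1A1 at 7.27 and 7.09 at its brightest probe set, with its other probe sets 2.27 and 3.62 higher in ZR-75-1. The growth protocol in the labels also names the line MDA-MB-435, and melanocyte genes were therefore examined. MITF was at 9.34, 9.27 and 9.29 in MDA-MB-231 and at 5.66, 5.61 and 5.46 in ZR-75-1, while PMEL, TYR and MLANA were between 3.44 and 5.63 in both lines.

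Differences were also set out in windows of neighboring genes, and the windows described were chosen for their extreme medians. A shared direction within them follows in part from that choice, and how often neighbors share a direction was not tested. The median difference was taken over windows of 10 consecutive tested genes in the order of the RefSeq table, and over 10337 windows the percentiles 5 and 95 of this median were -0.86 and 0.86. In the lowest window, from TUBD1 to TBX2, all 10 genes were at least 2-fold higher in ZR-75-1, and the median was -3.27. BCAS3, a gene of cell migration, was at 6.50, 6.42 and 6.67 in MDA-MB-231 and at 12.34, 12.17 and 12.24 in ZR-75-1. PPM1D, a phosphatase of the DNA damage response, was at 7.72 to 7.85 against 10.90 to 10.93, and RPS6KB1, the ribosomal S6 kinase, at 8.47 to 8.60 against 11.02 to 11.07. All 3 probe sets of RPS6KB1 gave -2.42 to -2.60 and both of PPM1D gave -2.74 to -3.13. APPBP2 differed by -3.50 and TBX2, a repressor of the T-box family, by -4.71. Copy number was not measured.

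Further windows held genes of various functions. The window from ZBTB21 to CBS, with a median of -2.59, held the trefoil factor genes TFF1 and TFF3, and all its genes but PKNOX1 were higher in ZR-75-1. The window from OXCT1 to HMGCS1 held GHR and SELENOP, with a median of -2.43. The highest window, from PDK3 to SRPX, had a median of 3.65 and held DMD, the dystrophin gene, at 6.93, 6.88 and 6.77 in MDA-MB-231 and at 2.88, 2.93 and 2.95 in ZR-75-1, and SRPX, which differed by 5.61. The second, from PBX2 to HLA-DMA, was the MHC class II region, with a median of 2.77 and 9 of 10 genes called higher in MDA-MB-231. The window from MTMR2 to MMP1, with a median of 2.48, had 9 genes at least 2-fold higher in MDA-MB-231, including YAP1, BIRC2 and MAML2. The exception was PGR, which differed by -5.48.

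**Figure D5:**
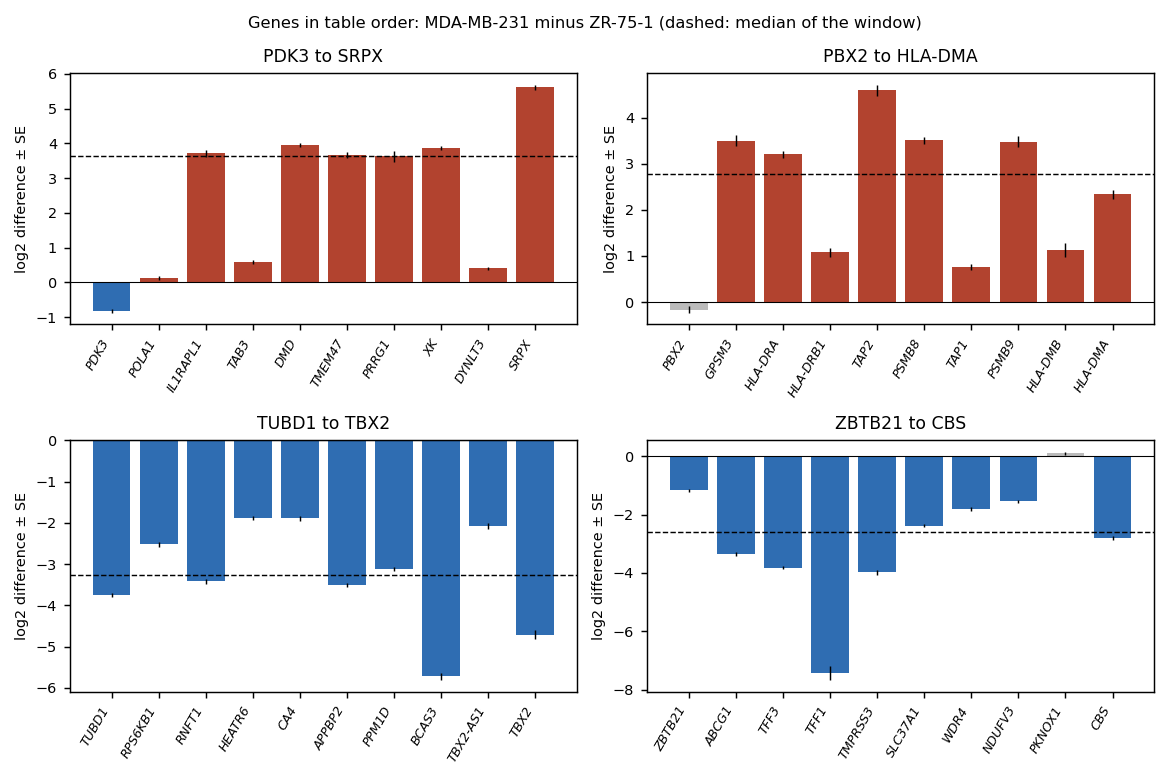
Log2 difference, MDA-MB-231 minus ZR-75-1, of 10 consecutive tested genes in the highest 2 windows (top) and the lowest 2 windows (bottom), with SE bars, gray for genes that did not pass the test and a dashed line at the median of the window. In the window from TUBD1 to TBX2 all 10 bars lie below 0, and in the window from PBX2 to HLA-DMA all but PBX2 lie above 0.

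Probe sets of the same gene mostly gave the same direction. For the 1523 genes that were called and at least 2-fold different and had further tested probe sets, 2318 of the 2397 further probe sets (96.7%) had the same sign and 1749 (73.0%) were called and at least 2-fold different in the same direction. More than 1 tested probe set was there for 4816 genes. Opposite calls were found within 481 of these, and at least 2-fold each way within 14 (0.291%). The largest such case was AP1S2, a subunit of the clathrin adaptor AP-1, with a probe set 2.88 higher in MDA-MB-231 and another 3.45 higher in ZR-75-1. SRR, DHX30, RETREG2 and PPM1A followed. BIRC5, the survivin gene, was 1.05 higher in MDA-MB-231 at one probe set and 2.48 higher in ZR-75-1 at another. For such genes the array gives no single difference.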

How the data were processed

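RNA of 3 MDA-MB-231 and 3 ZR-75-1 arrays was analyzed. Values came as the deposited log2 levels, for which the submitters' processing notes name RMA in Affymetrix Expression Console as the tools of the authors. The methods name GC-RMA instead, and they name a RiboPure kit for the RNA where the labels name Trizol and RNeasy. The normalization was taken as it was, and no detection calls or scan dates were used, so that a value under 6 was not read as absence and a fold against it may be too small.

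After leaving out 62 control probe sets, 41091 of 54613 had 1 gene symbol, 1801 had several and 11721 had none. Old symbols were replaced through the RefSeq table of GRCh38.p14, which lacked 42 of the gene identifiers. The 6 arrays were fitted with limma 3.58.1 in R 4.3.3, with 4 residual and 3.80 prior degrees of freedom and Benjamini-Hochberg adjustment over 20564 probe sets, and the procedure was tested on simulated data. Lists, pairs and windows were described without a set test.

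The members, gene lists and pairs were chosen with earlier results of these data known. Named genes are the 15 with the largest difference in each direction that passed the test without overlap between the arrays of the lines, the 6 largest differences and preset key members of each list, the pairs, the markers, the genes of 10 windows and the 5 genes with the most discordant probe sets, and further list members were named after their values were seen. The 250 bases before the start were searched on both strands in 8725 of 10562 genes. Alternatives were all 9 arrays in the fit, other filters, robust fits, other normalizations, other choices of probe sets, a replicate block, a fold minimum and leaving out each array in turn.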

Additional observations from a re-analysis of the deposited data

How the results depend on the processing

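The number of probe sets called different was 17070. It was 16482 to 16862 when each array was left out in turn, 16759 with a replicate block, 11155 with a filter on level and variation and 9465 without the probe sets that may bind several transcripts, for which fewer probe sets were tested. The replicate numbers did not pair the arrays: the deviations of arrays with the same number correlated at -0.10, 0.01 and -0.01. Counts at least 2-fold higher were 3421 probe sets in MDA-MB-231 against 3051 in ZR-75-1, with 3340 to 3487 and 3009 to 3104 when an array was left out, 2028 and 1846 without the probe sets that may bind several transcripts, and 2786 and 2416 when limma tested against a fold of 2.

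Of 559 counts under the alternatives, 540 were within 1.5 times the reported count. Of 509 list medians, 398 moved by less than the spread between arrays, 107 moved by more and 4 turned direction. Without a filter, the genes at least 2-fold higher in MDA-MB-231 were 13 cytokine genes instead of 7 and 2 cancer-testis genes instead of 1. With a filter at 7, they were 3 cytokine genes, and 2 HOX genes instead of 4 were higher in ZR-75-1. Without the probe sets that may bind several transcripts, the genes at least 2-fold higher in MDA-MB-231 were 11 of the matrix, 5 of the protease, 8 of the antigen presentation, 15 of the ERK feedback, 0 of the cancer-testis and 5 of the surface and stem cell list. Those higher in ZR-75-1 were 2 of the intermediate filament, 2 of the mitosis and replication, 4 of the glutathione, 6 of the lipid synthesis and 2 of the HOX list.

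Directions turned for 4 list medians and, in 5 cases, for 4 named genes. The cytokine median was -0.21 with a filter at 7, and without the probe sets that may bind several transcripts the medians of the receptor, HOX and cancer-testis lists were 0.29, 0.57 and -1.70. In that setting GSTM3 was at 0.714 and GINS2 at 0.0615. COL1A1 was at -2.27 under the level and variation filter and at -1.90 as a mean of its probe sets, and TYRO3 was at 0.13 as such a mean. The filter settings and the choice of probe set changed which probe set stood for these genes. Depth has no counterpart on arrays, and levels near background and the number of arrays limit the precision.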
